A study of Sus scrofa with 21 samples.

Results

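The transcripts described here are those of 10 genes of the neutrophil: the calgranulins S100A8, S100A9 and S100A12, the granule proteins MPO, LTF, LCN2, MMP8 and MMP9, and the surface receptors CSF3R and CXCR2. They were taken as the probes whose gene name in the scanner files is one of these symbols, in capitals or not. This gave 15 probes for 8 of the 10 genes, among 60305 probes and 47053 probe or gene names on the array. No probe carries the name CSF3R or MMP8, and these genes were not analysed here. A filter then took out the dimmest 25% of probes by mean, after which 14 probes and 7 genes were tested, among 45228 probes and 34393 gene features in all. The gene left out by this step was MPO.

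The blood came from pigs of 60 days of age, fed a standard diet ad libitum and otherwise untreated. The DD group was 10 minipigs of the French SLAdd line, which was kept inbred as a single herd and is homozygous at the SLA, the swine major histocompatibility complex. The LW group was 11 Large White pigs, a commercial breed. The DD pigs belonged to 5 litters and the LW pigs to 6, mostly as pairs of siblings, and each pig had 1 array on 1 of 3 chips that carried both breeds. Total RNA of whole blood was measured, so that fewer neutrophils and less RNA per neutrophil cannot be told apart in any value below.

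Neutrophils carry ready-made proteins in granules that are filled in turn as the cell matures in the bone marrow. Azurophil granules come first and hold myeloperoxidase (MPO) and the serine proteases, specific granules follow with lactoferrin (LTF), lipocalin 2 (LCN2) and collagenase (MMP8), and gelatinase granules come last with MMP9. S100A8 and S100A9 pair to form calprotectin, the most abundant protein of the neutrophil cytosol, which binds zinc and manganese and is used as a marker of inflammation. S100A12 is a related calcium-binding protein that signals through RAGE and TLR4. CXCR2 binds interleukin 8 and related chemokines and draws the cell out of the marrow and into tissue, and CSF3R binds G-CSF, the growth factor of the lineage.

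In RefSeq on Sscrofa11.1, the build to which the authors updated the annotation of the array, the calgranulin genes are neighbours. S100A8 lies at chr4:96209670-96210603, S100A12 at chr4:96225691-96227030 and S100A9 at chr4:96236114-96238989, with no other annotated gene between them. LTF lies at chr13:29413886-29445751, LCN2 at chr1:268609975-268614651, MMP9 at chr17:48179690-48186782, CXCR2 at chr15:120219657-120230203 and MPO at chr12:34557031-34570091. The probes themselves were not placed on the genome, and the exon that each one reads was not determined.

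The following probes carry the main results. Each is a 60-base oligonucleotide, printed 5′ to 3′ as the scanner files give it, and capitals mark the longest run of 16 or more bases that it shares, on either strand, with a probe of another name.
S100A8: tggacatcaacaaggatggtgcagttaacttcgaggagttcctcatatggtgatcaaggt
S100A12: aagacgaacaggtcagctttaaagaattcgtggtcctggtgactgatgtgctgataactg
S100A9, first probe: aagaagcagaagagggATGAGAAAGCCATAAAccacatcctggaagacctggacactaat
S100A9, second probe: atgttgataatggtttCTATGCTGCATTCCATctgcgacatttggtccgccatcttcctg
LCN2, all 3 spots: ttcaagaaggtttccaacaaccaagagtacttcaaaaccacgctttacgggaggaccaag
LTF, A_72_P657796: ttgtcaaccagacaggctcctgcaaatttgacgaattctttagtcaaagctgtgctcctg
MMP9, second probe: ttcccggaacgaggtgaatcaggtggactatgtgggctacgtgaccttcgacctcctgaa

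The single S100A8 and S100A12 probes and the first S100A9 probe share no run longer than 6 bases with each other, so the calgranulin values below came from separate sequences. The first S100A9 probe shares 16 bases with a probe named SEC62. The second S100A9 probe shares 16 bases, as the reverse complement, with a probe named NMD3. No transcript sequence was at hand to check on which strand a probe lies. For the second S100A9 probe (O5444) and the MMP9 probe O11977, both dim, it is in doubt whether they lie on the strand that the labelled RNA can bind, so each gene is also given without them. The 3 LCN2 spots are one sequence and count as repeats of one measurement. Of the 3 LTF probes, A_72_P088736 and O11680 overlap by 44 bases, while A_72_P657796, printed above, shares at most 7 bases with either.

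The arrays differed in brightness. Brightness, as the log2 value below which 75% of an array's processed signals lie, ran from 6.56 to 8.49 with a median of 7.64 in DD pigs, and from 7.37 to 8.62 with a median of 8.41 in LW pigs. The difference of the litter means was −0.68 (two-sided exact permutation test with the litters divided in every way, p = 0.00866, where 0.00216 is the smallest p possible). The share of probes detected well above background ranged from 44.7% to 63.8% over the arrays, and no probe was saturated. Precision is limited by how many arrays there are.

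Transcripts of neutrophil receptors were present in all the pigs. CXCR2, the neighbouring receptor gene CXCR1 and FCGR3B, an Fc receptor, were well above background on all 10 DD and all 11 LW arrays. That their signal came from neutrophils alone was not tested. Of 7 azurophil genes tested, LYZ, CTSC and CD63 were detected on all 21 arrays as well, while the genes best known for this granule were dim. LYZ is also among the monocyte genes below. The MPO probe was well above background on none of the 21 arrays, and no fold change is given for it. A further probe, which the array describes as similar to dog MPO but does not name MPO, was well above background on 4 DD and 9 LW arrays. ELANE, which encodes neutrophil elastase, was detected on 4 DD and 8 LW arrays, and PRTN3, which encodes proteinase 3, on 7 DD and 10 LW arrays.

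None of the 7 genes tested passed the threshold for a difference between the breeds. At an adjusted p below 0.05 in limma, 7171 of the 34393 gene features (20.9%) differed between DD and LW pigs, with 11.4% higher and 9.41% lower in DD pigs. Of the 7 genes, 0 did. Of the 34393 features 9315 had a known gene symbol, and the share called among those alone is not given. At an unadjusted p below 0.05 in limma there were 12588 of the 34393 features and 0 of the 7 genes. The differences of the 7 genes ran from −0.51 to 0.36 on the log2 scale, 3 above zero and 4 below, with a median of −0.11 against −0.04 over all features tested. The intervals leave room for differences of moderate size in either direction, and a p that misses the threshold does not show that the breeds have equal levels.

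S100A8 had a deposited log2 intensity from 8.54 to 10.92 with a median of 9.88 in DD pigs, and from 9.16 to 11.75 with a median of 9.55 in LW pigs. The breeds overlapped, with 3 DD pigs below all LW pigs and 1 LW pig above all DD pigs. The means were 9.70 ± 0.76 (SD, n = 10) and 9.81 ± 0.74 (SD, n = 11). The difference, DD minus LW, was −0.13 (95% interval −0.74 to 0.49, limma adjusted p = 0.786). Within the chips, in their order, the difference was −0.05, −0.53 and 0.33, so its sign depended on the chip.

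S100A12 varied among the pigs much as S100A8 did. Its log2 intensity ran from 9.36 to 11.64 with a median of 10.62 in DD pigs, and from 9.98 to 12.14 with a median of 10.30 in LW pigs. Again 3 DD pigs lay below all LW pigs and 1 LW pig above all DD pigs. The difference was −0.11 (95% interval −0.69 to 0.47, limma adjusted p = 0.800), with −0.17 on chip 1, −0.51 on chip 2 and 0.48 on chip 3.

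S100A9, the partner of S100A8 in calprotectin, ran from 5.50 to 8.58 with a median of 7.31 in DD pigs, and from 6.18 to 7.88 with a median of 6.93 in LW pigs, as the mean of its 2 probes, of which O5444 may not read this transcript. Here 2 DD pigs exceeded every LW pig and 1 was lower than all of them. The difference was 0.36 (95% interval −0.20 to 0.92, limma adjusted p = 0.343), with 0.43 on chip 1, −0.13 on chip 2 and 0.92 on chip 3. It was 0.58 without DD_16 (limma adjusted p = 0.0526), 0.20 without DD_23 (limma adjusted p = 0.594) and 0.07 without chip 3.

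The 2 probes named S100A9 differed in brightness. The first was well above background on all 21 arrays and gave a difference of 0.29 (SE 0.39, limma adjusted p = 0.619 over the probes), which is the value of the gene if O5444 is set aside. The second, O5444, whose strand is in doubt, was well above background on 5 DD and 4 LW arrays. The mean of the DD pigs was 5.09 ± 0.52 (SD, n = 10) and that of the LW pigs 4.65 ± 0.37 (SD, n = 11), a difference of 0.43 (SE 0.18, limma adjusted p = 0.0895). It was the only 1 of the 14 probes tested with an unadjusted p below 0.05, which 16799 of all 45228 probes had. At the adjusted threshold 0 of the 14 passed, while 21.7% of all probes did.

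**Figure D1:**
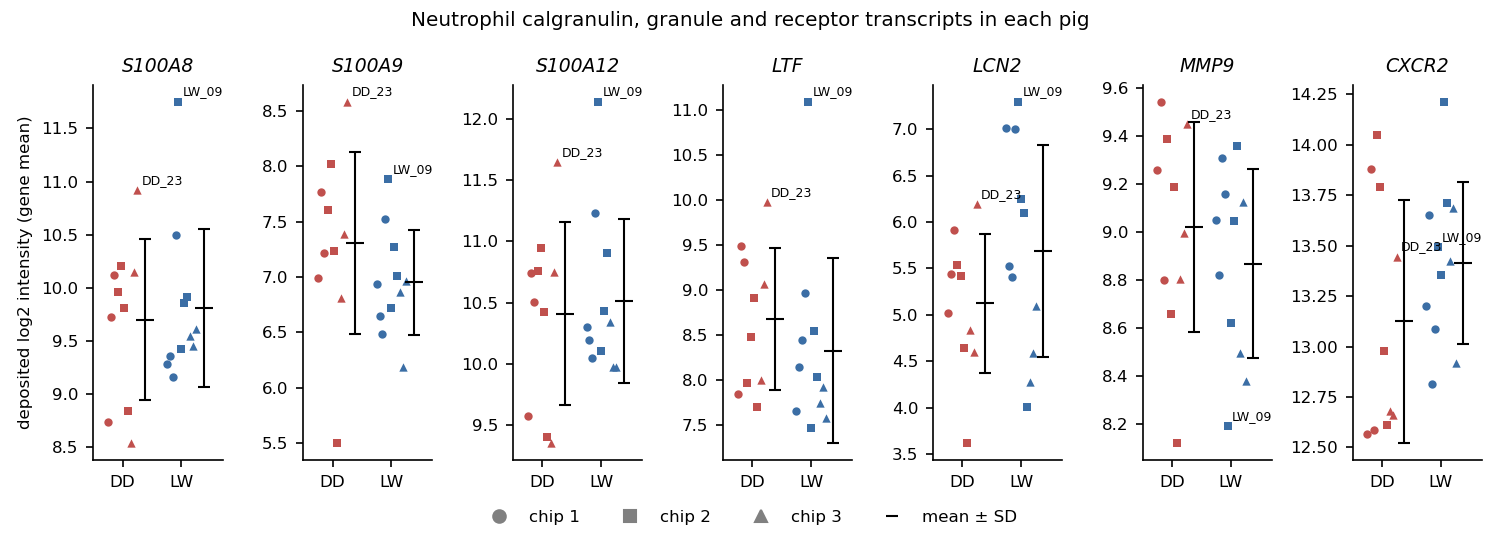
Deposited log2 intensity of each gene in each pig (gene mean over its probes), with DD pigs in red, LW pigs in blue, a symbol for each chip, and the mean ± SD of each breed beside the points. The breeds overlap in all 7 genes, and the pigs LW_09 and DD_23 stand highest in their breed in S100A8, S100A9, S100A12, LTF and LCN2.

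Of the specific granule genes, LTF encodes an iron-binding protein that withholds iron from bacteria. Its log2 intensity ran from 7.70 to 9.98 with a median of 8.70 in DD pigs, and from 7.47 to 11.09 with a median of 8.04 in LW pigs. The pig LW_09 lay above all DD pigs, and 3 LW pigs lay below them. The difference was 0.35 (95% interval −0.41 to 1.11, limma adjusted p = 0.512), with 0.58 on chip 1, −0.52 on chip 2, where LW_09 is, and 1.27 on chip 3. Its probes gave 0.23, 0.24 and, for the separate region printed above, 0.58. The gene difference was 0.67 without LW_09 and 0.17 without DD_23, and without chip 2 it was 0.88 (limma adjusted p = 0.0526).

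LCN2 encodes a protein that binds bacterial siderophores. It ran from 3.62 to 6.20 with a median of 5.22 in DD pigs, and from 4.01 to 7.30 with a median of 5.53 in LW pigs. There 4 LW pigs lay above all DD pigs, and 1 DD pig lay below all LW pigs. The difference was −0.51 (95% interval −1.24 to 0.21, limma adjusted p = 0.298), the largest in size of the 7, with −0.78 on chip 1, −1.10 on chip 2 and 0.56 on chip 3. Without chip 3 it was −1.04 (limma adjusted p = 0.375), and without chip 2 it was −0.23.

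LCN2 was a dim gene, and its repeat spots show how dim. The spots A_72_P000426, A_72_P563459 and O902 were well above background on 6, 7 and 8 of the 10 DD arrays and on 8, 8 and 9 of the 11 LW arrays. Read from the same 60 bases in the same pig, pairs of them differed by a median of 0.21 to 0.37 and by at most 1.31 on the log2 scale. The spots of the first S100A9 probe, of LTF A_72_P088736 and of MMP9 A_72_P303264 each have a copy with the same bases under another name. These copies differed by medians of 0.03, 0.04 and 0.04 and by at most 0.26. Beside these differences between copies, the SD between pigs of one breed, without the chip effects, was 0.95 for LCN2, 0.70 for S100A9, 0.97 for LTF and 0.41 for MMP9.

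MMP9, the gelatinase of the last granules, ran from 8.12 to 9.54 with a median of 9.09 in DD pigs, and from 8.19 to 9.36 with a median of 9.05 in LW pigs. In this gene 3 DD pigs exceeded every LW pig and 1 was lower than all of them. The difference was 0.17 (95% interval −0.18 to 0.52, limma adjusted p = 0.479), positive on each chip at 0.12, 0.04 and 0.41. It was 0.05 without chip 3, 0.10 without LW_09, 0.11 without DD_23 and 0.27 without DD_16. Its 2 bright probes gave 0.12 and 0.22. With only probes detected on at least 10 arrays, which leaves out O11977, the gene gave 0.17 (limma adjusted p = 0.617). The probe O11977 was well above background on 2 DD arrays and no LW array, and no difference is given for it.

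CXCR2 ran from 12.57 to 14.05 with a median of 12.83 in DD pigs, and from 12.81 to 14.21 with a median of 13.42 in LW pigs. In 5 of the 10 DD pigs it was below all LW pigs, and 1 LW pig was above all DD pigs. The difference was −0.31 (95% interval −0.71 to 0.10, limma adjusted p = 0.259), negative on each chip at −0.18, −0.34 and −0.41. It depended on the scaling of the arrays and was −0.09 when each array was scaled to its 75th percentile.

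A test on the litters in place of the pigs gave no call either. Over the 11 litter means, two-sided exact permutation tests of the 7 genes had p from 0.141 for LCN2 to 0.788 for S100A8, and the lowest adjusted value was 0.558. Whether the breed difference itself varied with the chip was tested by an interaction term, which called 0 of the 34393 features in limma, 5106 at an unadjusted p below 0.05, and none of the 7 genes (adjusted p from 0.433 for LTF to 0.958 for CXCR2).

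**Figure D2:**
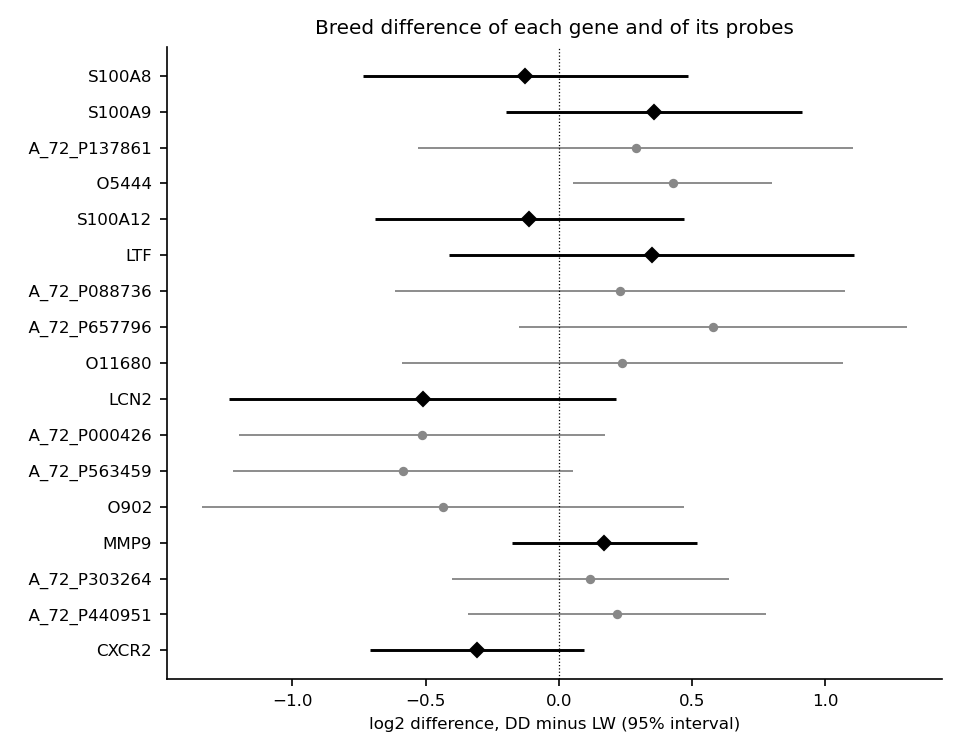
Log2 difference, DD minus LW, with its 95% interval for each gene (black diamonds) and, where a gene has several, for each of its probes (grey circles), without the MMP9 probe O11977. All 7 gene intervals include 0, from −0.51 for LCN2 to 0.36 for S100A9.

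Pigs of one breed differed widely in these genes. Within a breed and after removal of chip effects, LTF had an SD of 0.97 on the log2 scale, more than 98.8% of the 34393 features. The SD was 0.95 for LCN2, 0.77 for S100A8, 0.73 for S100A12 and 0.70 for S100A9, each above that of at least 93.7% of features. CXCR2 had an SD of 0.49, above 76.3% of features, and MMP9 of 0.41, above 60.5%. Averaging in the dim probes lowered the spread, since without O11977 the SD of MMP9 was 0.63, above 90.3% of features, and without O5444 that of S100A9 was 1.06, above 99.2%.

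The same pigs were high or low in S100A8 and S100A12, and less so in S100A9. LW_09 was the highest of the 21 pigs in S100A8 (11.75), S100A12 (12.14), LTF (11.09) and LCN2 (7.30). It was the 3rd highest in S100A9 (7.88) and the second lowest in MMP9 (8.19). DD_23 was the highest of the DD pigs in S100A8 (10.92), S100A12 (11.64), LTF (9.98) and LCN2 (6.20), and the highest of all pigs in S100A9 (8.58).

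At the other end in S100A8 and S100A12 were 3 DD pigs of 2 litters. The siblings DD_16 and DD_19 had S100A8 at 8.84 and 8.54 and S100A12 at 9.40 and 9.36, and DD_01 had 8.73 and 9.57. DD_16 was also the lowest of all pigs in S100A9 (5.50), LCN2 (3.62) and MMP9 (8.12). Its low values were not limited to neutrophil genes. Among the DD pigs it was the lowest in CD14, CD3E, CD79A and NKG7, markers of other blood cells. It was the highest of them in the markers CA1, CD68 and KLRK1. The sibling of LW_09, LW_04, had S100A8 at 9.36 and LTF at 8.15.

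The arrays of these pigs varied in brightness. The array of LW_09 was the 7th brightest of the 21 and that of DD_23 the 20th, close to that of DD_16, the 19th. Markers of T cells differed more between the high pigs. In the mean level of 10 T cell genes, LW_09 was the highest of all pigs and DD_23 the lowest. The part of array brightness and of other cell types in the levels of these pigs was not tested.

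Over the 11 litter means with the breed means subtracted, the calgranulins moved together. Of 21 pairs among the 7 genes, 5 passed an adjusted p of 0.05 by Pearson's r in two-sided exact permutation tests within the breeds, and 4 by Spearman's rho. The smallest p that these 86400 permutations can give is 1.16e-05.

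S100A8 and S100A12 had r = 0.97 (exact permutation p = 0.000463, adjusted 0.0047) and rho = 0.91 (p = 0.000903, adjusted 0.00762). Without the 2 litters farthest from the median of S100A8, which hold DD_16 and LW_09, r was 0.93. Within the chips r over the pigs was 0.94, 0.97 and 0.98. S100A9 and S100A12 had r = 0.90 (exact permutation p = 0.000671, adjusted 0.0047) and rho = 0.88 (p = 0.00109, adjusted 0.00762), with 0.78 without the 2 farthest litters and 0.91, 0.85 and 0.87 within the chips. S100A8 and S100A9 had r = 0.84 (exact permutation p = 0.00431, adjusted 0.0181). Their rho was 0.73 (p = 0.0233) and did not pass the adjusted threshold (0.0891), and r was 0.71 without the 2 farthest litters and 0.75, 0.79 and 0.86 within the chips.

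LTF joined S100A8 and S100A12. With S100A8 it had r = 0.89 (exact permutation p = 0.00015, adjusted 0.00316) and rho = 0.96 (p = 0.000116, adjusted 0.00243). That r stayed at 0.90 without the 2 farthest litters and was 0.84, 0.91 and 0.96 within the chips. With S100A12, LTF had r = 0.84 (exact permutation p = 0.00181, adjusted 0.00948) and rho = 0.87 (p = 0.0026, adjusted 0.0137), with 0.83 without the 2 farthest litters and 0.84, 0.81 and 0.97 within the chips. With S100A9 its r was 0.61 (exact permutation p = 0.0401, adjusted 0.12) and its rho 0.70 (p = 0.039, adjusted 0.117), which did not pass.

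The other granule gene and the receptor gave no call. LCN2 had r = 0.48 with S100A8, 0.56 with S100A9 and 0.27 with LTF (exact permutation, lowest adjusted p = 0.089). CXCR2 had its highest r with S100A9, at 0.60 (exact permutation p = 0.136, adjusted 0.317). MMP9 had r = 0.07 with S100A8, 0.19 with S100A12 and 0.00 with LTF (exact permutation, adjusted p = 0.896, 0.67 and 0.991). Without the 2 farthest litters these r values were −0.14, 0.03 and 0.52, and within the chips r of LTF and MMP9 was 0.12, −0.32 and 0.73. Whether the relation of S100A8 with LTF differs from that with MMP9 was not tested.

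Without O5444 and O11977, an alternative chosen after seeing the data, the same 5 pairs passed by Pearson's r (adjusted exact permutation p = 0.0353 for S100A8 with S100A9). MMP9 then had r = 0.13 with S100A8, 0.25 with S100A12 and 0.09 with LTF (exact permutation, adjusted p = 0.769, 0.588 and 0.80).

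**Figure D3:**
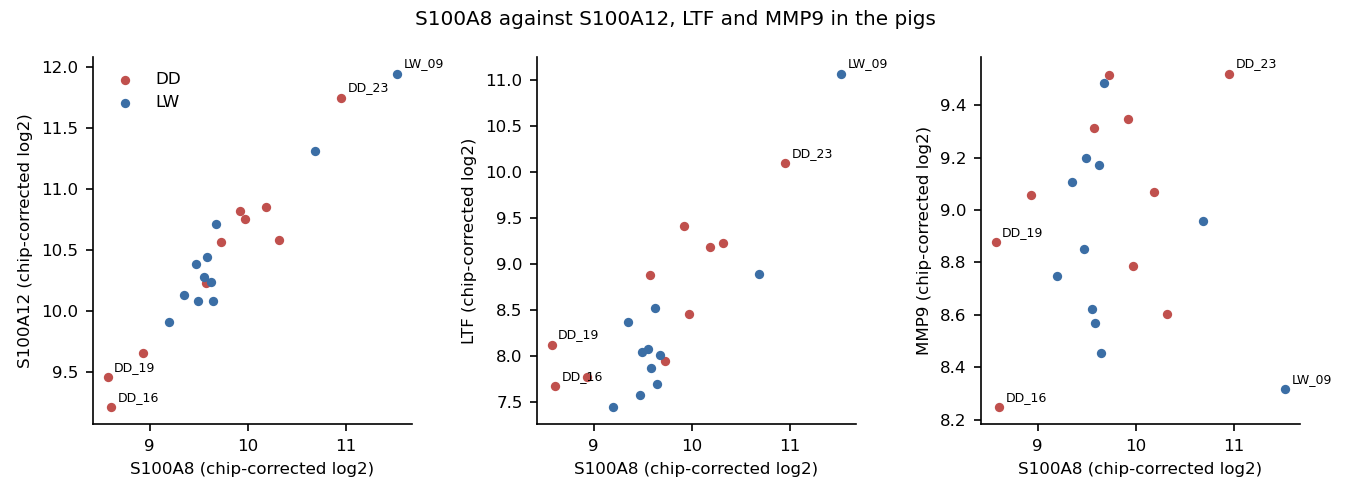
Chip-corrected log2 intensity of S100A12, LTF and MMP9 against that of S100A8, with 1 point for each pig, DD in red and LW in blue. S100A12 and LTF follow S100A8 from DD_16 and DD_19 up to DD_23 and LW_09, while in MMP9 the pig LW_09 is near the bottom.

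**Figure D4:**
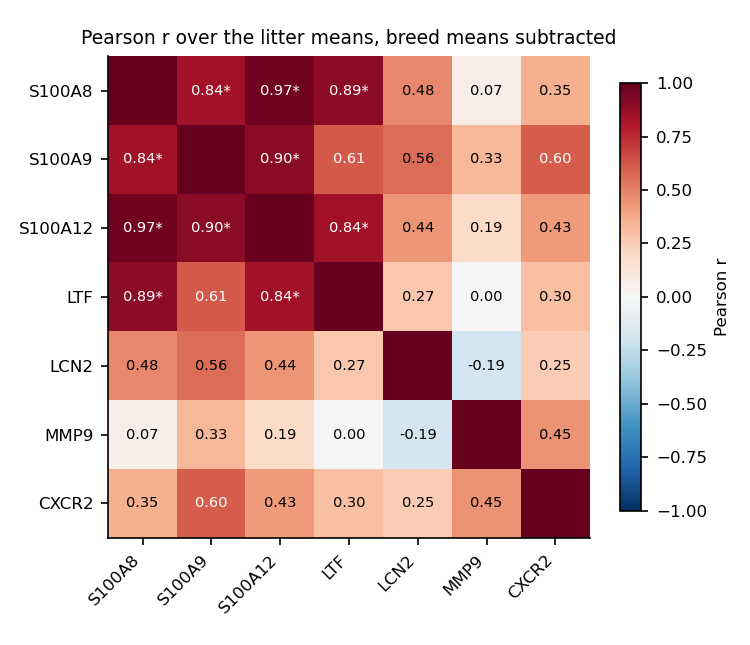
Pearson's r of each pair of the 7 genes over the 11 litter means after each breed's mean was taken off, with an asterisk where the adjusted exact permutation p is below 0.05. The 5 marked pairs lie among S100A8, S100A9, S100A12 and LTF.

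Other genes most like the calgranulins in their pattern over the 21 pigs were sought among 9315 features with a known gene symbol. Breed and chip means were removed, and the calgranulin, granule and receptor genes tested above are not listed. Of these other genes, the highest r with the mean of the 3 calgranulins was that of TCN1 (r = 0.92), a vitamin B12 binder that specific granules also hold. It was followed by LTB4R (0.80), the leukotriene B4 receptor, HP (0.78), haptoglobin, GPX1 (0.73), a glutathione peroxidase, and FCN1 (0.73), ficolin 1. With the mean of LTF and LCN2 the highest were LTB4R (0.80), TCN1 (0.76), CACNB1 (0.76), HP (0.76) and GRN (0.75), the progranulin gene. CACNB1 was well above background on only 5 of the 21 arrays. These r values describe pigs that share litters and carry no test.

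Of those 7 genes, 2 passed the threshold between the breeds on the 3 chips together, where 20.9% of all features did. LTB4R ran from 5.05 to 7.41 with a median of 6.35 in DD pigs, and from 5.26 to 6.09 with a median of 5.86 in LW pigs. It was higher in DD pigs by 0.53 (SE 0.16, limma adjusted p = 0.0292). Every DD pig but DD_16, which was the lowest of all, had a higher value than any LW pig. GPX1 was higher by 0.34 (SE 0.12, limma adjusted p = 0.0473). Without chip 3 neither passed, at 0.34 for LTB4R (limma adjusted p = 0.498) and 0.14 for GPX1 (limma adjusted p = 0.674).

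Around the 7 genes, 70 further genes were tested, in lists by granule, receptor and function. The lists of other S100 genes, calgranulin receptors, protease inhibitors and ligands hold genes that are not particular to neutrophils. In limma 20 of the 70 (28.6%) passed the adjusted threshold, 9 higher and 11 lower in DD pigs, where 20.9% of all features passed. Their median difference was 0.03. Without chip 3 there were 0 of 70, where 1.52% of all features passed, and with brightness as a covariate 1, where 2.15% did. At an unadjusted p below 0.05 there were 17 of 70 in each of these fits, where 12.3% and 11.7% of all features had one. Calls were lost over the whole array in these fits. Each call below comes from the fit of the 3 chips together and need not hold on each chip. On chips 1, 2 and 3 the difference was −1.69, −1.05 and 0.04 for PPBP and −0.02, 0.68 and 1.30 for CSF2RB. For SLC11A1 it had the same sign on each, at 0.57, 0.45 and 0.34.

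Of the granule and cathelicidin genes 5 of 24 (20.8%) passed, in both directions, close to the share of all features. Of 7 azurophil genes, 1 was lower, BPI, a bactericidal protein. The flag for detection was set on no DD array and 2 LW arrays. The LW mean was 1.10-fold above an upper bound of the DD mean, with undetected LW arrays taken as measured (limma adjusted p = 0.0412 for the fitted difference). Of 7 specific granule genes beside LTF and LCN2, CHI3L1, a chitinase-like protein, was lower, with a difference of −0.88 (SE 0.29, limma adjusted p = 0.0348) and ARG1, arginase 1, was higher by 0.67 (SE 0.23, limma adjusted p = 0.0449). Of 6 genes of gelatinase granules and secretory vesicles beside MMP9, the metal transporter SLC11A1 was higher by 0.46 (SE 0.12, limma adjusted p = 0.0141).

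Cathelicidins are antimicrobial peptides that pigs keep in several forms in their granules. Of 4 tested, PMAP-36 was lower in DD pigs, with a difference of −1.02 (SE 0.33, limma adjusted p = 0.0342). It was well above background on 3 DD and 10 LW arrays, and LW_09 had the highest value of all pigs (7.50). PR39 at 0.84, NPG4 at 0.61 and PMAP-23 at −0.25 did not pass, and DD_23 was the highest of all pigs in these 3.

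Of 10 further receptors, 2 passed, CSF2RB, the shared chain of the GM-CSF receptor, higher by 0.63 (SE 0.18, limma adjusted p = 0.0245), and LTB4R as above. CXCR1 had a difference of 0.05 (SE 0.26) and FCGR3B of −0.09 (SE 0.17). Of 5 genes of the NADPH oxidase, which makes superoxide in the phagosome, RAC2 was lower, with a difference of −0.52 (SE 0.14, limma adjusted p = 0.0159). Of 4 transcription factors of the lineage, both C/EBP genes were higher, CEBPA by 0.86 (SE 0.23, limma adjusted p = 0.0191) and CEBPB by 0.47 (SE 0.12, limma adjusted p = 0.0163).

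Of 11 other S100 genes 3 passed. S100A4 was lower, with a difference of −0.48 (SE 0.16, limma adjusted p = 0.0409), and S100A16 higher by 0.32 (SE 0.10, limma adjusted p = 0.0346). S100A13 was well above background on no DD array and 5 LW arrays, and 6 of the 11 LW pigs lay above all DD pigs. The LW mean was 2.06-fold above an upper bound of the DD mean, with undetected LW arrays taken as measured (limma adjusted p = 0.0374 for the fitted difference). Of 5 genes of calgranulin reception, LY96, the partner of TLR4, was lower, with a difference of −0.78 (SE 0.14, limma adjusted p = 0.00125), and CD36, a scavenger receptor, higher by 0.78 (SE 0.17, limma adjusted p = 0.00559). TLR4 itself (−0.40) and AGER, the RAGE gene (detected on 0 DD and 4 LW arrays), did not pass.

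Of 7 protease inhibitors, the general inhibitor A2M (−0.85, SE 0.20, limma adjusted p = 0.00858) and the cystatin CST3 (−0.94, SE 0.26, limma adjusted p = 0.0204) were lower, while TIMP1, the inhibitor of MMP9, had a difference of 0.09 (SE 0.20). Of 4 genes of neutrophil ligands, 3 passed. IL8, a ligand of CXCR2, was lower (−0.51, SE 0.14, limma adjusted p = 0.0217) and was detected on 1 DD and 9 LW arrays. CXCL2 was higher (0.52, SE 0.16, limma adjusted p = 0.0269) and was detected on 2 DD and 1 LW arrays. PPBP, a chemokine of platelets, was lower (−0.94, SE 0.32, limma adjusted p = 0.0415).

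**Figure D5:**
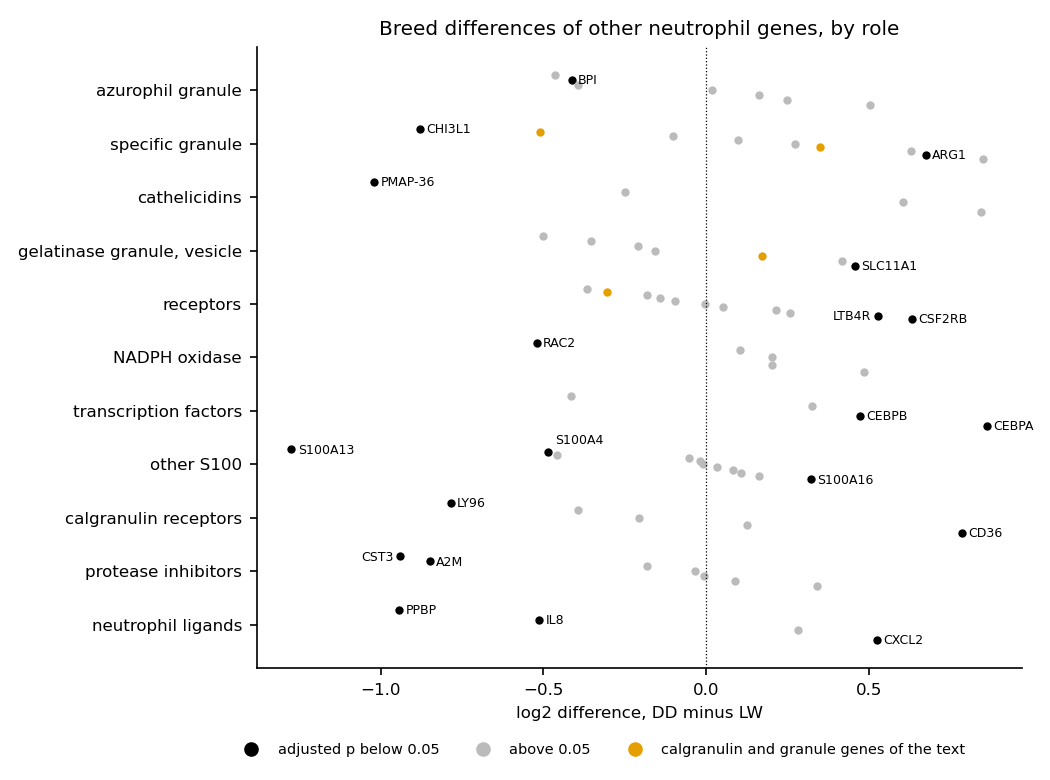
Log2 difference, DD minus LW, of the 70 further genes by role, black where the limma adjusted p is below 0.05 and grey otherwise. LTF, LCN2, MMP9 and CXCR2 are in orange. The 20 called genes lie on both sides of 0, and the orange points are not among them. BPI and S100A13 are drawn at their fitted difference although their DD signal was not above background.

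Markers of other blood cells were tested in the same fit, in which 11.4% of all features were higher and 9.41% lower in DD pigs. The 3 genes of all leukocytes were lower in DD pigs, PTPRC by a difference of −0.43, CORO1A of −0.42 and LCP1 of −0.36, and the mean level of the 3 ran from 11.6 to 13.0 in DD and from 12.2 to 13.2 in LW pigs. Of 10 T cell genes 4 were lower (CD3D, CD3G, CD247 and CD8A), with mean levels of 8.03 to 9.42 in DD and 8.40 to 9.56 in LW pigs. Of 7 erythroid genes 4 were higher (EPB42, CA1, ALAS2 and KLF1), with mean levels of 11.2 to 12.8 and 11.0 to 12.4. HBB (0.31), SLC4A1 (−0.05) and AHSP (−0.27) did not pass. On chips 1 and 3 the difference was 0.22 and 1.85 for EPB42 and 0.54 and 1.55 for CA1. It was 0.08 and 1.25 for ALAS2 and 0.24 and 1.13 for KLF1. Of 8 monocyte genes only CD163 passed, lower by a difference of −0.72, with mean levels of 7.39 to 8.66 and 7.69 to 8.52. The median of the 8 was 0.06. CSF1R (0.63, limma adjusted p = 0.051), FCN1 (0.42), CD14 (0.13), VCAN (0.08) and CD68 (0.03) were above zero. CCR2 (−0.25) and LYZ (−0.46) were below, and none of these passed.

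Of 5 platelet genes PPBP passed (mean levels 7.64 to 9.30 in DD and 8.25 to 9.27 in LW pigs). Of 3 basophil and mast cell genes GATA2 was higher by 0.71 (7.45 to 9.10 and 7.14 to 8.19). Of 3 genes listed for eosinophils GATA1 was higher by 0.40 (7.09 to 7.99 and 6.76 to 7.54). CCR3 did not pass (0.42, limma adjusted p = 0.0719), and IL5RA was well above background on 0 DD and 0 LW arrays. Whether the GATA1 signal came from eosinophils was not tested. The eosinophil granule genes EPX and PRG2 were not tested. Of 6 B cell genes (7.59 to 9.13 and 7.67 to 9.37) and 5 cytotoxic genes (7.95 to 10.0 and 7.98 to 10.2) 0 passed in limma. The part of these cell types in the neutrophil values was not tested.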

How the data were processed

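Whole blood RNA was labelled with Cy3 and hybridised to one-colour Agilent arrays (8 × 60K pig custom design), read by the authors with Feature Extraction 10.7.3.1. The deposited scanner files hold spot and background intensity. The authors made the deposited log2 matrix by normexp correction, log2 scaling and quantile normalization, after removing 3 of 24 arrays as outliers. Groups came from the labelled breed, and litter and chip from the paper's sample list.

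The deposited log2 values were used. The lowest 25% of probes by mean were removed, and probes of one name were averaged. Limma 3.58.1 (R 4.3.3) was fitted with breed and chip fixed and litter as a random block (duplicateCorrelation, consensus correlation −0.11), with Benjamini-Hochberg adjustment over all features at 0.05. The negative correlation treats siblings as less alike than other pigs, and fewer features were called without the block (4894 against 7171). Intervals used the moderated t distribution. Litter means were compared by exact permutation in Python 3.11.15 with scipy 1.17.1. The steps were tested on simulated data.

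A probe was detected where the scanner software flagged it well above background. For a gene detected on no array of a breed, the bound used, per array, the higher of its own value and the lowest value among detected probes. The mean of the other breed used all its arrays as measured, detected or not. The text names each of the 10 genes, list genes past the threshold (at most 4 a list, by size) and the 5 features most correlated with each of the means described. Other list genes were named after their values were seen. The members and lists were chosen with earlier results of these data known. Spread and relations were also computed without 2 dim probes, chosen after seeing the data. Alternatives were other background corrections, scalings, filters, probe summaries and models, and leaving out each chip or pig.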

Additional observations from a re-analysis of the deposited data

How the results depend on the processing

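The number of gene features called (7171) was 4397 with no filter, 4894 with no litter block, 1866 with no chip term, 524 without chip 3 and 739 with array brightness as a covariate, and 3606 to 9688 with each pig left out, lowest without DD_21 and highest without DD_06. The other alternatives stayed within 1.5 times. The further genes called (20 of 70) were 11 with no filter, 13 with no litter block, 5 with no chip term, 13 without chip 1 and 13 without chip 2. They were 0 without chip 3, 1 with brightness as a covariate and 11 to 22 with each pig left out. Scaling to the 75th percentile moved the median of all features from −0.04 to 0.07 and the calls higher in DD pigs from 54.9% to 69.7%. Of the calgranulin, granule and receptor genes, 0 passed in limma in each of 36 alternatives (0 to 0 with each pig left out), and at most 1 of 7 had an unadjusted p below 0.05 in any of them. In these alternatives 4023 to 13954 of all features met the same unadjusted threshold. The lowest adjusted p were 0.0526 for S100A9 without DD_16 and 0.0526 for LTF without chip 2. Differences near zero changed sign: without chip 2, S100A8 was 0.13 and S100A12 0.054. With each pig left out, S100A8 ran from −0.28 (without DD_23) to 0.074 (without LW_09) and S100A12 from −0.28 (without DD_23) to 0.055 (without LW_09), with both also above zero without DD_16 (0.010 and 0.035) and without DD_19 (0.023 and 0.015). The cause was not tested. No paired analysis was possible because the breeds share no replicate number. Signal over background limits LCN2, the second S100A9 probe, O11977 and MPO, and 21 arrays limit the size of difference that could be called.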
